A study of Sinocyclocheilus angustiporus and Sinocyclocheilus anophthalmus with 4 samples.

Results

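The transcripts described here encode the respiratory chain and ATP synthase, complexes I to V of the inner mitochondrial membrane, in eyes of a cavefish and of a surface fish. They were found by name: a row of the deposited tables was taken when its descriptive name contained NADH dehydrogenase, succinate dehydrogenase, ubiquinol-cytochrome c, cytochrome b, cytochrome c oxidase or ATP synthase, and left out when it named cytochrome b5, the b-245 protein or an assembly factor. This gave 90 of 9649 rows. Of these, 73 named a nuclear-encoded subunit and 14 named a product of the mitochondrial genome. The name of 1 row, NADH dehydrogenase alone, did not say which genome it came from. A further 2 rows matched by their letters and name no subunit. The cavefish was Sinocyclocheilus anophthalmus and the surface fish Sinocyclocheilus angustiporus; whole eyes of adults were used, and no treatment is named. The labels give 2 individuals per species and do not say whether they were pooled. Only 1 eye library stood for each species, so differences are given without error, p-value or replicate check; the brain libraries of the series were not analysed here.

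The respiratory chain passes electrons from NADH (complex I) and succinate (complex II) through ubiquinone, complex III and cytochrome c to oxygen at complex IV. Complexes I, III and IV pump protons across the inner membrane, and complex V, the ATP synthase, lets them flow back to make ATP. Complexes I, III, IV and V are built from subunits of both genomes, while complex II is wholly nuclear-encoded. Photoreceptors are among the cells with the highest energy demand in the body, and in fish cones and rods mitochondria are packed into the inner segment.

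Values are RPKM, read numbers scaled to transcript length and to the mapped reads of the library, so that levels of different genes share a scale. They summed to 665574 over all rows in the cavefish eye and 684736 in the surface fish eye; read depth is unknown. Ratios are log2((cavefish RPKM + 1)/(surface fish RPKM + 1)), which understates differences of low rows, and a value of -1 or 1 is called 2-fold. The median log2 ratio of all rows was -0.27, so that every ratio below is read against a general shift towards lower values in the cavefish eye. The tables hold no row with both values under 5 RPKM. Of the 90 rows, 4 had a cavefish value under 5 RPKM and none a surface fish value under 5 RPKM. Those 4 thus entered through the surface fish eye and had to be lower in the cavefish. They were NDUFA4L2, COX VIIa 2 like, a complex III row with an unnumbered kd size and the row named only succinate dehydrogenase. The retinal identity of both samples was borne out by rhodopsin, the rod pigment, at 4884 RPKM in the cavefish eye and 14606 RPKM in the surface fish eye.

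As a group, nuclear-encoded subunits had lower levels in the cavefish eye, by a similar amount in most complexes. Of the 73 rows, 66 had a ratio below 0, as had 6634 of all 9649 rows. At least 2-fold lower were 19, which is 26.0% of them, where 10.1% of all rows were as low. In the other direction 1 row was at least 2-fold higher, where 3.83% of all rows were as high. The median log2 ratio was -0.70, and the middle 50% of the rows lay between -1.02 and -0.41. Their values summed to 2373 RPKM in the cavefish eye and 3740 RPKM in the surface fish eye. With ratios centred on the median of all rows, 7 nuclear rows were at least 2-fold lower (as were 5.55% of all rows) and 2 at least 2-fold higher (as were 6.71% of all rows). The median of the nuclear rows then lay at -0.43, the same distance from that of all rows by construction, while 12 of the 2-fold calls were lost. Of the 19 rows, 7 stayed 2-fold lower under all 5 other ways of scaling that were tried, with no share of all rows computed. Among them were NDUFAB1, NDUFA6, COX VIIa 2 like, an unnumbered COX subunit and 2 rows of the ATP synthase c ring. COX VIIa 2 like is present only through its surface fish value and could only be lower. The other 12, named below, came within 2-fold under at least 1 of these scalings.

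Markers of cell types that a whole eye holds differed between the same libraries. As a background for the counts in this paragraph, 10.1% of all rows had a log2 ratio of -1 or less. A ratio of 1 or more was found in 3.83% of all rows. Of 10 photoreceptor rows, 8 were at least 2-fold lower, and they summed to 6735 RPKM in the cavefish eye and 20217 RPKM in the surface fish eye. All 5 listed skeletal muscle rows were at least 2-fold higher, with a sum of 1921 RPKM in the cavefish eye and 634 RPKM in the surface fish eye. Myosin heavy chain, planned as a muscle marker, was not among the listed rows. Of 29 lens rows, 16 were at least 2-fold higher, most of them copies of gamma M2 crystallin, and 5 had a ratio below 0. The lens rows summed to 14045 RPKM in the cavefish eye and 11150 RPKM in the surface fish eye. The most abundant, crystallin gamma S1, was among the 5, at 3107 RPKM in the cavefish eye and 4046 RPKM in the surface fish eye (-0.38). All 3 erythrocyte rows (495 RPKM in the cavefish eye and 1662 RPKM in the surface fish eye) and both epithelial rows (57.7 RPKM in the cavefish eye and 734 RPKM in the surface fish eye) were at least 2-fold lower. Of the epithelial rows, epithelial cell adhesion molecule stood at 4.46 RPKM in the cavefish eye and 74.07 RPKM in the surface fish eye. Present only through its surface fish value, it could only be lower. Once the median of all rows is subtracted, phosphodiesterases 6B (-1.20) and 6C (-1.12) and ba1 globin (-1.19) come within 2-fold. Crystallins gamma S3 (0.98), gamma M2d2 (0.97) and gamma M7 (0.84) then pass it. No marker was at 0 in either eye, but neither was any other row, the smallest value being 0.08 RPKM. The part of these cell types in the levels of the respiratory chain was not tested, and in whole eyes fewer cells of a type and less RNA per cell cannot be told apart.

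On the deposited scale with 1 added, complexes I, II, III and V had nearly the same median, while with 5 added these ranged from -0.71 for complex V to -0.49 for complex III. The median log2 ratio of nuclear subunits was -0.70 for complex I (29 rows), -0.75 for complex II (6 rows), -0.69 for complex III (10 rows) and -0.75 for complex V (15 rows). Complex IV, with 13 rows, had the median nearest to that of all genes, at -0.41. Summed RPKM in the cavefish eye stood to that in the surface fish eye as 0.636 for complex I, 0.605 for complex II, 0.612 for complex III, 0.743 for complex IV and 0.591 for complex V. The order of these values is a description, since the rows of every complex overlapped in their ratios.

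**Figure D1:**
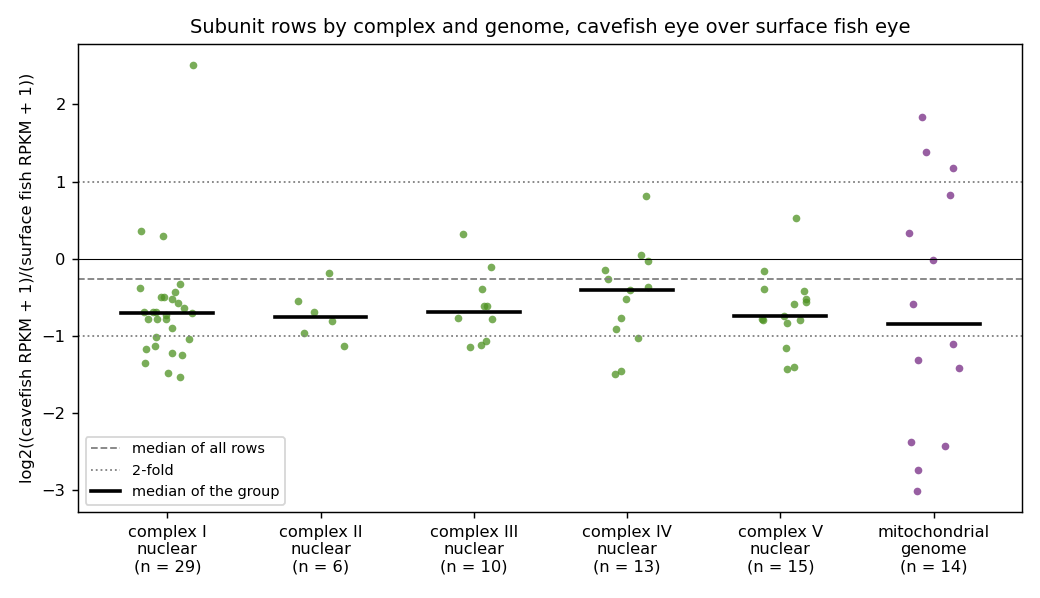
Log2 ratio of cavefish over surface fish RPKM (with 1 added to each) for every subunit row, by complex for the nuclear genome and together for the mitochondrial genome; each point is a row, black bars are medians, the dashed line is the median of all rows (-0.27) and dotted lines mark 2-fold. Medians of the nuclear rows lie between -0.75 and -0.41, while the 14 mitochondrial rows spread from -3.01 to 1.84.

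Complex I oxidises NADH in a matrix arm and pumps protons in a membrane arm. Its NADH-oxidising module holds the flavoprotein NDUFV1, which binds NADH, with NDUFV2 and the iron-sulfur protein NDUFS1. NDUFV1 stood at 26.9 RPKM in the cavefish eye and 55.5 RPKM in the surface fish eye, a log2 ratio of -1.02. NDUFS1 stood at 22.0 RPKM in the cavefish eye and 52.6 RPKM in the surface fish eye (-1.22), and NDUFV2 was within 2-fold at -0.79. All 3 rows of this module were thus lower in the cavefish eye, as were 6634 of all 9649 rows. The sum of the 3 was 66.6 RPKM in the cavefish eye and 139 RPKM in the surface fish eye. With ratios centred on the median of all rows, NDUFV1 (-0.75) and NDUFS1 (-0.95) came within 2-fold.

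The module that hands electrons to ubiquinone was less uniform. NDUFS3 (-0.70) and NDUFS7 (-0.70) were within 2-fold. The iron-sulfur protein NDUFS8 had rows for both of its fish copies, and these differed in direction. NDUFS8a stood at 28.3 RPKM in the cavefish eye and 37.0 RPKM in the surface fish eye (-0.38). NDUFS8b stood at 35.4 RPKM in the cavefish eye and 5.39 RPKM in the surface fish eye, a log2 ratio of 2.51 and the highest of the 90 rows. NDUFS8a was 0.800 times NDUFS8b in the cavefish eye and 6.87 times in the surface fish eye. Their sum was 63.7 RPKM in the cavefish eye and 42.4 RPKM in the surface fish eye.

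Accessory subunits surround this core and stabilise it. Of 21 accessory rows, 6 were at least 2-fold lower (as were 10.1% of all rows) and none at least 2-fold higher (as were 3.83% of all rows), with a median of -0.69. With ratios centred on the median of all rows, NDUFB8, NDUFS4, NDUFA13 and the unnumbered beta row came within 2-fold. NDUFA6 stood at 22.0 RPKM in the cavefish eye and 58.0 RPKM in the surface fish eye (-1.36). NDUFB8 stood at 17.7 RPKM in the cavefish eye and 41.1 RPKM in the surface fish eye (-1.17). NDUFS4, a subunit of the matrix arm whose loss causes mitochondrial disease in mammals, stood at 13.6 RPKM in the cavefish eye and 31.0 RPKM in the surface fish eye (-1.14). NDUFA13, also known in mammals as GRIM-19, stood at 8.19 RPKM in the cavefish eye and 17.9 RPKM in the surface fish eye (-1.04). A beta subcomplex row whose number is missing from its name was lower as well, at 38.8 RPKM in the cavefish eye and 93.4 RPKM in the surface fish eye (-1.24).

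The mitochondrial acyl carrier protein NDUFAB1, which serves both complex I and fatty acid synthesis, was represented by a pair of rows that differed. The row without a size in its name stood at 13.6 RPKM in the cavefish eye and 39.6 RPKM in the surface fish eye (-1.48). The row named as the 8kDa protein stood at 7.86 RPKM in the cavefish eye and 6.26 RPKM in the surface fish eye (0.29). Both rows together summed to 21.4 RPKM in the cavefish eye and 45.9 RPKM in the surface fish eye.

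The most abundant nuclear complex I row, NDUFC2 of the membrane arm, went the other way and stayed within 2-fold, at 119 RPKM in the cavefish eye and 93.1 RPKM in the surface fish eye (0.36). NDUFB7, another abundant membrane arm subunit, stood at 42.3 RPKM in the cavefish eye and 53.4 RPKM in the surface fish eye (-0.33). The remaining accessory rows were all below 0, as were 6634 of all 9649 rows, and within 2-fold, from -0.90 for NDUFB4 to -0.43 for NDUFS5. They include NDUFA4L2, which in mammals is induced by low oxygen and was placed in complex I here by its name alone. NDUFA4L2 stood at 4.12 RPKM in the cavefish eye and 6.34 RPKM in the surface fish eye (-0.52). Being present only through its surface fish value, it could only be lower. The row named only NADH dehydrogenase was more abundant than any nuclear complex I row, at 191 RPKM in the cavefish eye and 268 RPKM in the surface fish eye (-0.49).

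Complex II belongs to the citric acid cycle as well as to the respiratory chain. Its 6 rows were lower in the cavefish eye on the deposited scale, as were 6634 of all 9649 rows. Of the 6, 1 was lower by 2-fold, where 10.1% of all rows were as low. With ratios centred on the median of all rows that row, SDHDb, came within 2-fold (-0.86), and SDHC turned to 0.08. The flavoprotein SDHA, which oxidises succinate, stood at 32.1 RPKM in the cavefish eye and 52.8 RPKM in the surface fish eye (-0.70). The iron-sulfur protein SDHB stood at 33.5 RPKM in the cavefish eye and 49.5 RPKM in the surface fish eye (-0.55). A low row named as an iron-sulfur precursor, which may be a further part or copy of SDHB, stood at 5.30 RPKM in the cavefish eye and 11.3 RPKM in the surface fish eye (-0.97). The membrane anchors differed from each other. SDHC stood at 9.21 RPKM in the cavefish eye and 10.6 RPKM in the surface fish eye (-0.19), and SDHDb at 11.2 RPKM in the cavefish eye and 25.7 RPKM in the surface fish eye (-1.13). The row named only succinate dehydrogenase had the lowest cavefish value of the 90 rows, at 2.52 RPKM in the cavefish eye and 5.17 RPKM in the surface fish eye (-0.81). Present only through its surface fish value, that row could only be lower.

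Complex III transfers electrons from ubiquinol to cytochrome c through cytochrome b, cytochrome c1 and the Rieske iron-sulfur protein. The more abundant Rieske row hardly differed, and its sign turned under other scalings, at 20.5 RPKM in the cavefish eye and 22.1 RPKM in the surface fish eye (-0.11). Another row of the same name was at least 2-fold lower, at 6.26 RPKM in the cavefish eye and 15.1 RPKM in the surface fish eye (-1.15). With ratios centred on the median of all rows that row came within 2-fold (-0.88). Both Rieske rows together summed to 26.7 RPKM in the cavefish eye and 37.3 RPKM in the surface fish eye. The core proteins, which face the matrix and descend from a processing peptidase, were lower within 2-fold. UQCRC1 stood at 35.1 RPKM in the cavefish eye and 61.1 RPKM in the surface fish eye (-0.78), while the copies UQCRC2a (-0.39) and UQCRC2b (-0.61) had 11.1 and 11.7 RPKM in the cavefish eye and 14.9 and 18.4 RPKM in the surface fish eye.

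Small subunits of complex III differed among themselves. Subunit 7 stood at 14.0 RPKM in the cavefish eye and 31.5 RPKM in the surface fish eye (-1.12). A row without a subunit number stood at 6.93 RPKM in the cavefish eye and 15.6 RPKM in the surface fish eye (-1.07). With ratios centred on the median of all rows, subunit 7 (-0.85) and the row without a number (-0.80) came within 2-fold. Subunit 8 was the only nuclear complex III row above 0, at 7.95 RPKM in the cavefish eye and 6.15 RPKM in the surface fish eye (0.32). Subunit 9 (-0.61) and a row named with an unnumbered kd size (-0.77) were within 2-fold. The kd row is present only through its surface fish value and could only be lower.

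Complex IV reduces oxygen to water in a core of mitochondrial subunits, which nuclear subunits surround and regulate. Its nuclear rows had the widest middle range of the complexes, 0.78 on the log2 scale. Subunit Vb, which binds zinc, stood at 60.8 RPKM in the cavefish eye and 125 RPKM in the surface fish eye (-1.03). With ratios centred on the median of all rows Vb came within 2-fold (-0.76). Subunit VIIa 2 like, known in mammals for joining complexes III and IV into supercomplexes, stood at 4.76 RPKM in the cavefish eye and 15.2 RPKM in the surface fish eye (-1.50). That row is present only through its surface fish value and so could only be lower. Its relative VIIa 2 stood at 37.2 RPKM in the cavefish eye and 49.7 RPKM in the surface fish eye (-0.41). A row named as a mitochondrial-like subunit without number was also at least 2-fold lower, at 8.84 RPKM in the cavefish eye and 26.1 RPKM in the surface fish eye (-1.46).

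Several of the abundant complex IV rows hardly differed between the eyes, and the sign of subunits VIb 1, Vab and the unnumbered IV row turned with the scaling. Subunit VIb 1, the most abundant, stood at 106 RPKM in the cavefish eye and 108 RPKM in the surface fish eye (-0.03). A subunit IV row whose isoform number is missing stood at 62.0 RPKM in the cavefish eye and 68.5 RPKM in the surface fish eye (-0.14). Subunit IV isoform 2, which in mammals is found in lung and is induced by low oxygen, was higher in the cavefish eye, at 55.4 RPKM in the cavefish eye and 31.2 RPKM in the surface fish eye (0.81). It was within 2-fold on the deposited scale and past it, at 1.08, with ratios centred on the median of all rows. Its level was 0.894 of the other subunit IV row in the cavefish eye and 0.456 of it in the surface fish eye. Of the subunit V copies, Va (-0.52) was 1.87 times Vab (-0.27) in the cavefish eye and 2.23 times in the surface fish eye. The remaining 4 rows, subunits VIa 1, VIIc and VIII and a polypeptide without number, lay between -0.92 and 0.05.

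Complex V turns proton flow through a ring of c subunits into rotation of a central stalk, which drives ATP synthesis in the F1 head. The catalytic head was the most abundant nuclear part of all complexes. Its alpha subunit stood at 269 RPKM in the cavefish eye and 465 RPKM in the surface fish eye (-0.79). Its beta subunit, which carries the catalytic sites, stood at 135 RPKM in the cavefish eye and 195 RPKM in the surface fish eye (-0.52). The head holds alpha and beta in equal number, while the alpha row was 1.99 times the beta row in the cavefish eye and 2.39 times in the surface fish eye. In the rotating stalk, the gamma subunit stood at 35.0 RPKM in the cavefish eye and 79.2 RPKM in the surface fish eye (-1.15), and delta was within 2-fold (-0.84). With ratios centred on the median of all rows gamma came within 2-fold too (-0.88).

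The c subunit is made in vertebrates from several nuclear genes that give the same mature protein, and its 4 rows differed in direction. The row named as a lipid-binding precursor stood at 69.6 RPKM in the cavefish eye and 189 RPKM in the surface fish eye (-1.43). The row named subunit c stood at 32.9 RPKM in the cavefish eye and 88.9 RPKM in the surface fish eye (-1.41), and its relative zgc:73293 at 23.3 RPKM in the cavefish eye and 35.6 RPKM in the surface fish eye (-0.59). The C3 row was higher in the cavefish eye, at 57.3 RPKM in the cavefish eye and 39.6 RPKM in the surface fish eye (0.52). C3 was thus the second most abundant c row in the cavefish eye and the third in the surface fish eye. The 4 rows summed to 183 RPKM in the cavefish eye and 353 RPKM in the surface fish eye. Near-identical coding sequences can share reads, and the sources used here do not say how such reads were divided, so levels of single c, NDUFS8 and other copied rows are uncertain.

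Subunits of the outer stalk and of the dimer contact in the membrane were lower and within 2-fold, apart from the coupling factor, whose sign turned under other scalings. In the outer stalk, which holds the head still, b isoform 1 (-0.79), d (-0.75) and the O subunit (-0.56) lay close together and the coupling factor nearer to 0 (-0.16). Of the subunits e and g, which join ATP synthases into dimers, g had a ratio of -0.80. The duplicates of subunit e kept nearly the same proportion, with 31.4 RPKM for a and 49.1 RPKM for b in the cavefish eye and 42.2 RPKM for a and 65.0 RPKM for b in the surface fish eye.

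**Figure D2:**
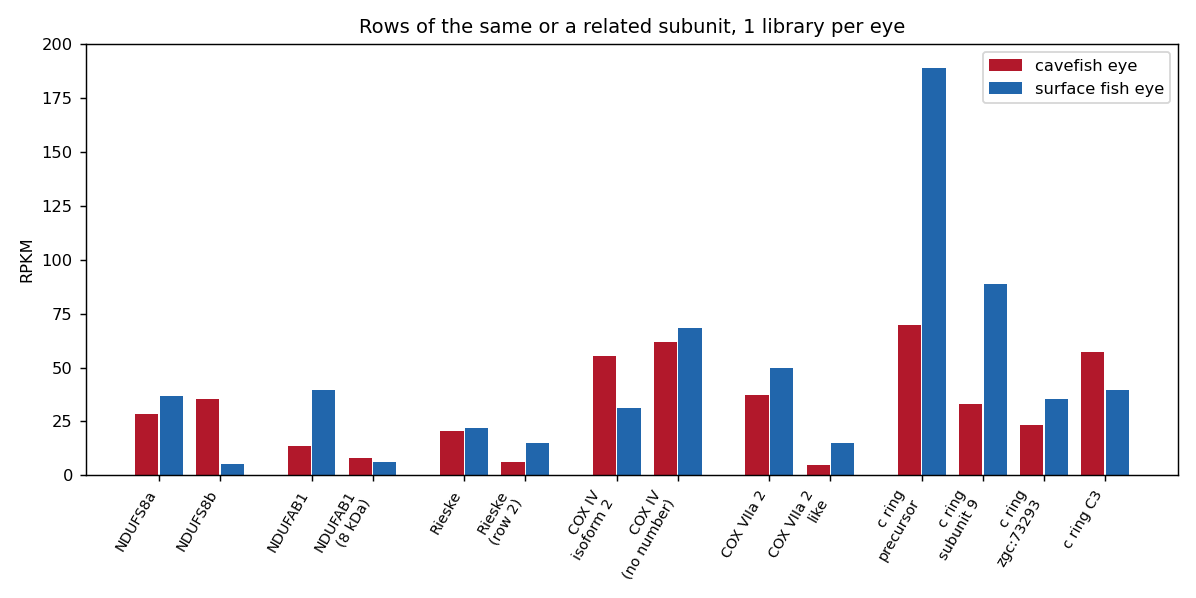
RPKM of rows that name the same or a related subunit, on a linear axis from 0; red bars are the cavefish eye and blue bars the surface fish eye, with 1 library each and no error. NDUFS8b, the 8 kDa NDUFAB1 row, COX IV isoform 2 and the C3 row of the c ring are higher in the cavefish eye, and their partner rows lie below the surface fish values on the deposited scale.

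Transcripts of the mitochondrial genome did not share a direction. All 13 protein genes of this genome had a row, ATP6 with 2 of them. Among the 14 rows were 7 with a log2 ratio of -1 or less, where 10.1% of all rows were as low, and 3 with a ratio of 1 or more, where 3.83% were as high. With other scalings COX2 and ND4 came within 2-fold and the first ATP6 row passed it. Their log2 ratios ran from -3.01 to 1.84, with an interquartile range of 2.84, where nuclear subunits had 0.61 and all rows 0.73. Counting each gene once, with the more abundant ATP6 row, the 13 genes summed to 7661 RPKM in the cavefish eye and 16736 RPKM in the surface fish eye. The median of -0.85 over the 14 rows describes few of them. The libraries came from polyadenylated RNA of different species, and the sources used here give no reference for the reads. The part of RNA selection and of read matching in the ratios of single mitochondrial rows was not tested.

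The largest difference was in COX1, the catalytic subunit of complex IV. COX1 stood at 800.02 RPKM in the cavefish eye and 6452 RPKM in the surface fish eye, a log2 ratio of -3.01. It made up 9.42% of the RPKM of the mitochondrial rows in the cavefish eye and 37.8% in the surface fish eye, while COX3 made up 23.99% in the cavefish eye and 5.27% in the surface fish eye. Subunit COX2, which receives electrons from cytochrome c, stood at 834 RPKM in the cavefish eye and 2078 RPKM in the surface fish eye (-1.32). COX3 went the other way, at 2038 RPKM in the cavefish eye and 898 RPKM in the surface fish eye (1.18). The core subunits of complex IV, which are present in equal number in the enzyme, thus differed in opposite directions.

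Most complex I genes of the mitochondrial genome, which encode its proton-pumping arm, were lower in the cavefish eye. ND6 stood at 82.2 RPKM in the cavefish eye and 556 RPKM in the surface fish eye (-2.74), and ND5 at 60.6 RPKM in the cavefish eye and 332 RPKM in the surface fish eye (-2.43). ND4L stood at 382 RPKM in the cavefish eye and 1027 RPKM in the surface fish eye (-1.42), and ND4 at 344 RPKM in the cavefish eye and 742 RPKM in the surface fish eye (-1.11). ND1 was within 2-fold, at 595 RPKM in the cavefish eye and 897 RPKM in the surface fish eye (-0.59). ND3 was nearly equal, at 53.1 RPKM in the cavefish eye and 53.8 RPKM in the surface fish eye (-0.02); under each other scaling its ratio was above 0, up to 0.30. ND2 was higher in the cavefish eye, at 365 RPKM in the cavefish eye and 101 RPKM in the surface fish eye (1.84).

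Cytochrome b, the mitochondrial subunit of complex III, stood at 485 RPKM in the cavefish eye and 2521 RPKM in the surface fish eye (-2.37). The complex V genes were higher in the cavefish eye. ATP8 stood at 716 RPKM in the cavefish eye and 567 RPKM in the surface fish eye (0.34). The rows of ATP6, the channel through which protons reach the ring, stood at 905 and 836 RPKM in the cavefish eye and 511 and 319 RPKM in the surface fish eye (0.82 and 1.39). The 2 rows of this 1 gene differed by 1.08 times within the cavefish library and by 1.60 times within the surface fish library. Other rows named alike could lie further apart. The Rieske rows differed by 3.27 times in the cavefish library and 1.46 times in the surface fish library. For the NDUFAB1 rows these values were 1.72 and 6.33 times.

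Neighbouring mitochondrial genes had similar ratios in part of the genome. In the gene order of vertebrates, ATP8, ATP6 and COX3 follow each other, and all were higher in the cavefish eye. ATP8 and ATP6 share a messenger RNA, as do ND4L and ND4, which were both lower. ND5, ND6 and cytochrome b at the end of that order all had log2 ratios below -2, although ND6 lies on the other strand. ND2 and COX1, which are also near neighbours, lay at the opposite ends of the range. Among the protein genes, ND1 (-0.59) and ND2 (1.84) are neighbours too and differed in direction, as did COX2 (-1.32) and ATP8 (0.34). This order is textbook knowledge of vertebrates and was not taken from the tables.

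**Figure D3:**
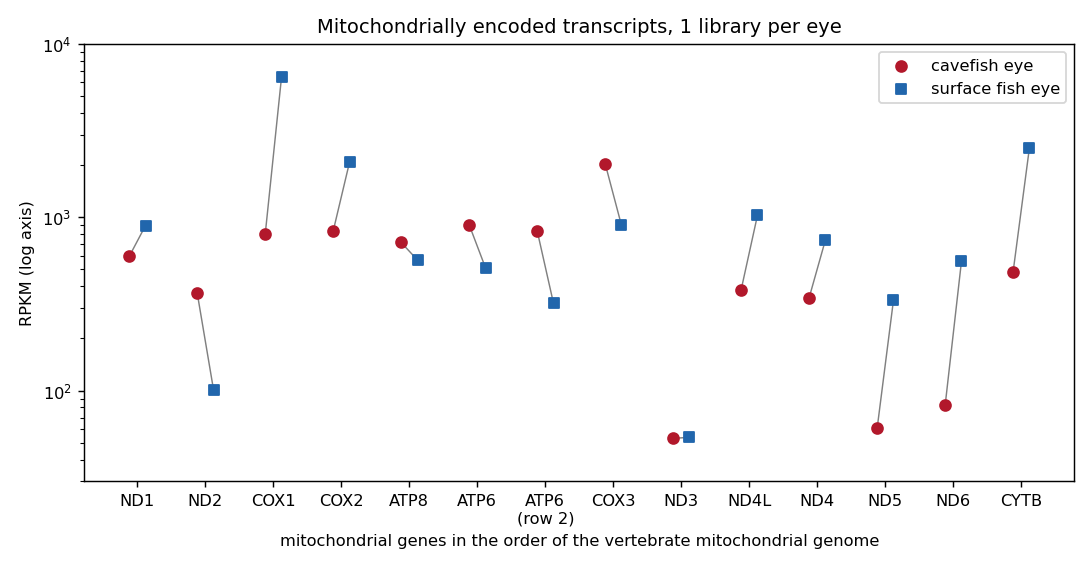
RPKM (log axis) of the 14 mitochondrially encoded rows in the gene order of the vertebrate mitochondrial genome; red circles are the cavefish eye and blue squares the surface fish eye, 1 library each. The cavefish values lie above the surface fish values for ND2, ATP8, both ATP6 rows and COX3, and below them for the others, with ND3 nearly equal.

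Nuclear rows kept their order of abundance between the eyes more closely than mitochondrial rows did. The Spearman coefficient between the levels in both eyes was 0.88 over the 73 nuclear rows, 0.38 over the 14 mitochondrial rows and 0.55 over the 13 mitochondrial genes with ATP6 counted once. Over all rows of both eyes it was 0.81. These coefficients are descriptions across genes of the same pair of libraries, and the mitochondrial rows are few. Nuclear levels ranged from 2.52 to 269 RPKM in the cavefish eye and from 5.17 to 465 RPKM in the surface fish eye. Mitochondrial levels ranged from 53.1 to 2038 RPKM in the cavefish eye and from 53.8 to 6452 RPKM in the surface fish eye.

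**Figure D4:**
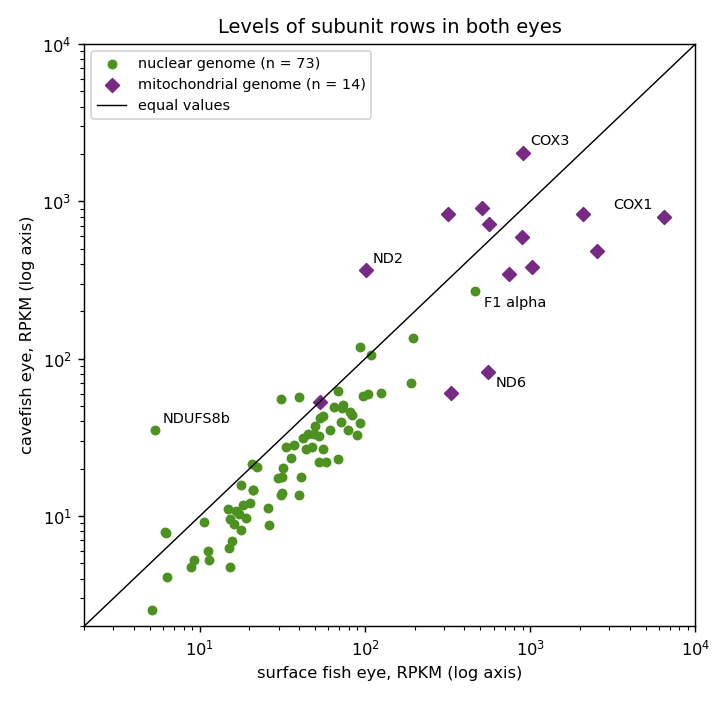
RPKM in the cavefish eye (vertical, log axis) against RPKM in the surface fish eye (horizontal, log axis) for each subunit row; green circles are nuclear rows, purple diamonds mitochondrial rows, and the line marks equal values. Most nuclear rows form a band below the line, with NDUFS8b far above it, while mitochondrial rows scatter on both sides.

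Other genes of the pathway were described from lists matched by name. Electron carriers and enzymes that feed electrons to ubiquinone lay close to the subunits, with a median of -0.65 over 11 rows, of which 1 was at least 2-fold lower (9.09%, where 10.1% of all rows were as low) and none 2-fold higher. Cytochrome c, the mobile carrier between complexes III and IV, stood at 45.2 RPKM in the cavefish eye and 80.1 RPKM in the surface fish eye (-0.81). Cytochrome c1, a subunit of complex III that the choice by name did not catch, stood at 33.8 RPKM in the cavefish eye and 44.2 RPKM in the surface fish eye (-0.38). The row named coenzyme Q10 homolog A, a ubiquinone-binding protein, was lower by 2-fold, at 4.90 RPKM in the cavefish eye and 10.9 RPKM in the surface fish eye (-1.01), a row present only through its surface fish value and so able only to be lower.

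Assembly factors, which build the complexes and are not part of them, had a median of -0.29 over 12 rows, near the -0.27 of all rows. None of them was past 2-fold. The copper chaperone COX17 was the most abundant, at 23.4 RPKM in the cavefish eye and 26.5 RPKM in the surface fish eye (-0.17). The complex III chaperone UQCC1, which the choice by name did catch and whose sign turned under another scaling, followed at 13.8 RPKM in the cavefish eye and 16.7 RPKM in the surface fish eye (-0.26). Of the 12 rows, 5 had a cavefish value under 5 RPKM and so could only be lower there.

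Regulators of mitochondrial genes had a median of -0.70 over 7 rows, with 2 at least 2-fold lower, where 10.1% of all rows were as low. The row named PGC-1 alpha like, of a coactivator family that drives mitochondrial biogenesis, stood at 8.80 RPKM in the cavefish eye and 19.8 RPKM in the surface fish eye (-1.09), which is within 2-fold once the median of all rows is subtracted. PGC-1 beta was more abundant and within 2-fold, at 59.5 RPKM in the cavefish eye and 97.2 RPKM in the surface fish eye (-0.70). MTERF domain containing 3, of a family of mitochondrial transcription factors, stood at 1.30 RPKM in the cavefish eye and 5.18 RPKM in the surface fish eye (-1.43), a row that could only be lower, being present through its surface fish value. LRPPRC, which stabilises mitochondrial messenger RNAs in mammals, stood at 13.5 RPKM in the cavefish eye and 21.6 RPKM in the surface fish eye (-0.63). Nuclear respiratory factor 1, a transcription factor of many nuclear subunit genes, was nearly equal, at 9.88 RPKM in the cavefish eye and 9.80 RPKM in the surface fish eye (0.01). Single-stranded DNA binding protein 1 had the highest ratio of the 7 rows (0.18), at 12.95 RPKM in the cavefish eye and 11.32 RPKM in the surface fish eye.

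The ATP synthase inhibitory factor and proteins that shape the cristae had a median of -0.40 over 7 rows, none of them past 2-fold. Of the 7 rows, 2 had a cavefish value under 5 RPKM and so could only be lower there. The inhibitory factor, which blocks ATP breakdown by complex V, stood at 70.1 RPKM in the cavefish eye and 63.1 RPKM in the surface fish eye (0.15). Mitofilin, the central protein of cristae junctions, stood at 17.8 RPKM in the cavefish eye and 32.8 RPKM in the surface fish eye (-0.85). The 2 ATP synthase proteins listed under other names, a mitochondrial proteolipid (-0.36) and the protein up-regulated during skeletal muscle growth (-0.27), were within 2-fold.

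Nuclear subunits of the chain had the lower median when set beside other mitochondrial proteins and beside the lysosomal proton pump, a rotary relative of the ATP synthase. The median was -0.36 over 39 mitochondrial ribosomal protein rows, of which 3 were at least 2-fold lower (7.69%, below the 10.1% of all rows). It was -0.34 over 9 rows of the import translocases, with none past 2-fold, and -0.41 over 20 proton pump rows, with 1 at least 2-fold lower, again a smaller share than over all rows. With 1 library per eye these differences could not be tested. Of the mitochondrial ribosomal rows, 12 had a cavefish value under 5 RPKM and could only be lower there, as had 1 of the import rows.

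**Figure D5:**
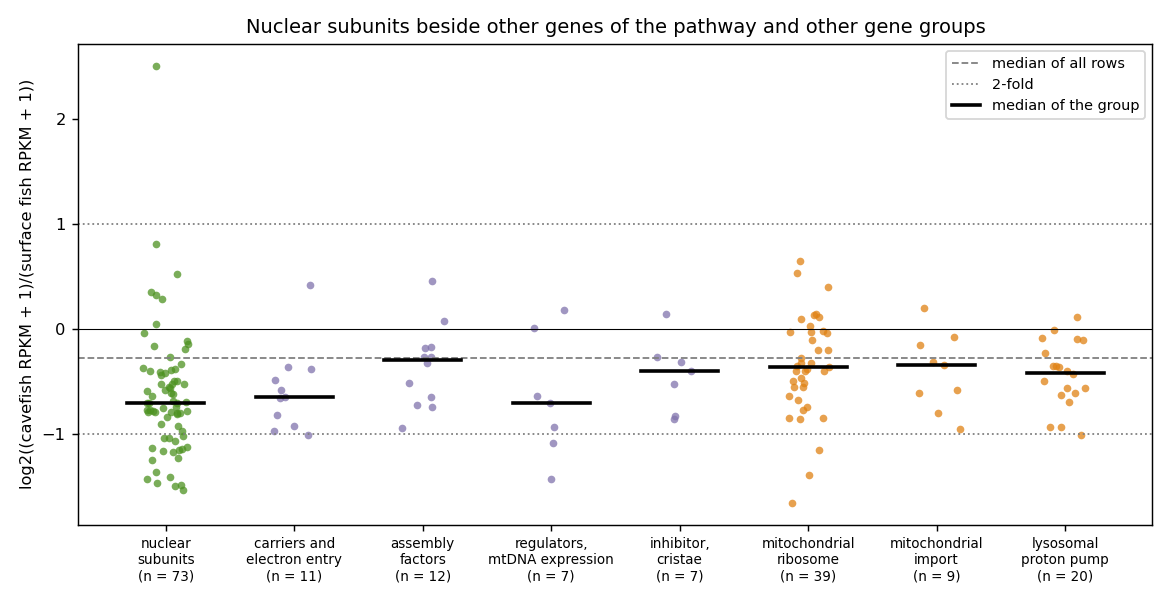
Log2 ratio of cavefish over surface fish RPKM (with 1 added to each) for nuclear subunits (green), other genes of the pathway (purple) and other gene groups (orange); each point is a row, black bars are medians, the dashed line is the median of all rows and dotted lines mark 2-fold. The medians of nuclear subunits (-0.70), carriers (-0.65) and regulators (-0.70) are the lowest, and that of assembly factors (-0.29) is near the median of all rows.

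The row that matched by letters and belongs to no complex, beside UQCC1, was cytochrome b ascorbate dependent 3, a transmembrane electron carrier outside the respiratory chain. It stood at 13.8 RPKM in the cavefish eye and 6.55 RPKM in the surface fish eye (0.97), and it was kept out of every median and count of subunits above.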

How the data were processed

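Per the labels' protocols, polyadenylated RNA of whole adult eyes was sequenced in paired ends on either of a pair of Illumina platforms; no label says which library used which, so platform and species cannot be told apart. The authors deposited RPKM, per the file headers, in 1 table per eye. The submitters' processing notes name Bowtie 0.12.2 without a role; the sources used here give no reference, gene models or treatment of shared reads. No counts are given, so the depth is unknown.

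Each member is 1 row; complex, genome and symbol were assigned from the names. A pseudocount of 1 and a threshold of 2-fold were used, and no test was made. Members and lists were chosen with earlier results of these data known, and the mitochondrial ribosome, import, proton pump and estrogen-related receptor lists were added later. Named were all mitochondrial and complex II rows and, per complex, nuclear rows past 2-fold, the 3 most abundant, the extremes and pairs of copies; of the other lists, rows past 2-fold and the 2 most abundant; other rows named were chosen after their values were seen, and 1 row is counted but not reported here. The computation was tested on simulated data. Alternatives were other pseudocounts, filters, thresholds and scalings. Python 3.11.15, numpy 2.4.6, pandas 2.3.3 and matplotlib 3.10.9 were used.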

Additional observations from a re-analysis of the deposited data

How the results depend on the processing

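The median of the nuclear subunits and the 2-fold counts moved with the scale. Its distance from the median of all rows, -0.43, is fixed or nearly so when all rows shift together; it was -0.35 with a pseudocount of 5, -0.44 with 0.1, -0.46 with rows of 5 RPKM or more in both eyes and -0.40 with quantile normalization. In the order mitochondrial rows, all nuclear rows, then nuclear complexes I, II, III, IV and V, the medians were -0.58, -0.43, -0.43, -0.48, -0.42, -0.14 and -0.48 with centring on the median of all rows. They were -0.58, -0.44, -0.47, -0.52, -0.44, -0.14 and -0.48 with equal totals without the 50 most abundant rows. They were -0.42, -0.43, -0.43, -0.51, -0.41, -0.081 and -0.45 with quantile normalization, and -0.58, -0.43, -0.44, -0.49, -0.43, -0.14 and -0.48 with a trimmed mean, an alternative chosen after seeing the data. Under each of these scalings 7 nuclear rows were at least 2-fold lower, in place of 19, and 2 at least 2-fold higher, in place of 1. With a pseudocount of 5, 11 nuclear rows were lower, and the medians were -0.55 for all nuclear rows, -0.56 for complex I, -0.57 for complex II, -0.49 for complex III, -0.37 for complex IV and -0.71 for complex V; with a pseudocount of 0.1 complex II had -0.86. At 1.5-fold, 44 nuclear rows were lower and 2 higher. The share of all rows was computed only for the deposited scale and for centring on the median of all rows. Counts at 1.5-fold, with a pseudocount of 5 and under the other scalings thus lack a background. So does the count of rows that stayed lower under all scalings. The 7 nuclear rows lower under all scalings included NDUFAB1, NDUFA6, VIIa 2 like, the unnumbered complex IV subunit and the c subunit rows named precursor and subunit 9; of the mitochondrial calls, COX2 and ND4 came under 2-fold in some scalings, down to -0.62 and -0.83. Equal totals without the mitochondrial rows, 1 row per name and rows of 5 RPKM or more in both eyes moved no median by more than 0.1 and no count by more than 1.5 times. No called row changed sign. No paired analysis was possible because each species had 1 eye library. The unknown depth leaves the counting error of every value unknown.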

Other observations

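Estrogen-related receptors, nuclear receptors known in mammals to work with PGC-1 coactivators on mitochondrial genes, were looked at after their values had been seen. The 5 rows had lower values in the cavefish eye, as had 6634 of all 9649 rows. At least 2-fold lower were 3, where 10.1% of all rows were as low. Receptors gamma b and beta are present only through their surface fish values and could only be lower. Receptor beta is within 2-fold once the median of all rows is subtracted. Estrogen-related receptor delta stood at 53.0 RPKM in the cavefish eye and 335 RPKM in the surface fish eye (log2 ratio -2.64). Estrogen-related receptor gamma b stood at 4.53 RPKM in the cavefish eye and 24.4 RPKM in the surface fish eye (-2.20), and receptor beta at 2.50 RPKM in the cavefish eye and 6.38 RPKM in the surface fish eye (-1.08). Receptor alpha (-0.93) and receptor gamma a (-0.31) were within 2-fold. Receptor alpha was also counted among the regulators of mitochondrial genes above.

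The spelling of the deposited names was tied to the ratio. Of 6549 rows whose name ends in a blank, 33 differed by 2-fold or more as a plain ratio of the deposited values, against 1626 of 3100 rows without that blank. Among the 90 rows described here these counts were 1 of 41 with the blank and 32 of 49 without it.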
